A study of Mus musculus with 15 samples.

Results

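The 7 genes described here, *Zscan4c*, *Zscan4d*, *Zscan4f*, *Tcstv1*, *Tcstv3*, *Zfp352* and *Tmem92*, are transcripts of the 2-cell-like state of mouse embryonic stem cells (ESCs), chosen by name out of the 48709 genes counted. Their RNA was followed over 15 libraries from 2 ESC lines losing OCT4, a transcription factor and the product of *Pou5f1* (also called *Oct4*), and all 7 were matched by symbol. The study followed ESCs as OCT4 was lost, slowly by deletion of its gene or quickly by degradation of its protein, and the members are described along both courses.

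CreER ESCs (Oct4Fl/-; CAG CreER, mixed 129SV and C57BL/6 strain) hold 1 floxed *Pou5f1* allele opposite a β-geo null allele, and 4-OHT (500 nM) lets a CAG-driven Cre delete the floxed copy. They were sampled at 0, 12, 18, 24 and 36 h with 2 replicate libraries at each time. O4AID ESCs (Oct4-/-; TetOFF Oct4; CAG Oct4AID; CAG Tir1, strain 129SV) derive from the ZHBTc4 line and have no working endogenous *Pou5f1*. Their OCT4 comes from a CAG-driven transgene that carries an auxin-inducible degron (AID), with the plant F-box protein TIR1 supplied by another CAG transgene and the untagged TetOFF *Oct4* held silent by doxycycline. The auxin IAA (500 µM) triggers degradation of the fusion protein, and single libraries cover 0, 1.5, 6, 10 and 24 h (1 for each). Both lines grew in N2B27 with PD03, Chiron and mLIF. For its courses of *Oct4* RNA and protein in the floxed line, the study also describes a change to serum medium with LIF alongside 4-OHT. Whether the CreER libraries used here had that change is not stated for them. Nothing in the labels says whether replicates came from separate cultures, so p-values measure the spread between these libraries, which may be technical.

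In culture a small and changing fraction of mouse ESCs passes through a state that resembles the 2-cell embryo, the stage at which the mouse zygotic genome is activated. The homeobox factor DUX drives this state and MERVL retrotransposons are transcribed in it. *Zscan4* genes, a tandem family encoding SCAN-domain zinc-finger proteins involved in telomere maintenance, are its most used markers. *Tcstv1* and *Tcstv3* belong to a family first described as variably expressed at the 2-cell stage, *Zfp352* encodes a zinc-finger protein of the early embryo and *Tmem92* a transmembrane protein. In bulk RNA, fewer cells in such a state and less RNA per cell cannot be told apart. MERVL repeats were not analysed here.

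The members lie in 4 places of the genome (GRCm38). *Zscan4c* (chr7:11005745-11010547, plus strand), *Zscan4d* (chr7:11161374-11166159, minus strand) and *Zscan4f* (chr7:11397915-11402318, plus strand) are copies in 1 cluster. *Tcstv1* (chr13:119893388-119894785, minus strand) and *Tcstv3* (chr13:120317567-120318076, plus strand) each have 1 exon. *Zfp352* lies at chr4:90218820-90225702 on the plus strand and *Tmem92* at chr11:94777217-94782703 on the minus strand. No exon of the 7 overlapped an exon of another gene on either strand.

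RefSeq promoter windows (GRCm38.p6) were matched for 4 of the 7 members, namely the 3 *Zscan4* genes and *Zfp352*. The 3 *Zscan4* promoters are shown because these promoters are close to identical in sequence. Each line gives the 150 bases that precede the annotated start, 5′ to 3′ on the gene's strand, with the TATAAA motif in capitals. The windows lie at chr7:11005595-11005744 (*Zscan4c*, plus), chr7:11166149-11166298 (*Zscan4d*, minus) and chr7:11397765-11397914 (*Zscan4f*, plus).
Zscan4c: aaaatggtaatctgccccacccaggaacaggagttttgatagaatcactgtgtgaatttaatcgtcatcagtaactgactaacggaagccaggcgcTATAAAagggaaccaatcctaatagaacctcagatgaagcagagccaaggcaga
Zscan4d: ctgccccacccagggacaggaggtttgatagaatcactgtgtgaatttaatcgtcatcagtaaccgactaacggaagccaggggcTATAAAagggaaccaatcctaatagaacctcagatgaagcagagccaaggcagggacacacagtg
Zscan4f: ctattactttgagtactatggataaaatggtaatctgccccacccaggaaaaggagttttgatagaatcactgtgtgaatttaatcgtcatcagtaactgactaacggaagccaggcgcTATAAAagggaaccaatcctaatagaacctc

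TATAAA began 54 bases before the annotated start in *Zscan4c*, 65 bases before it in *Zscan4d* and 31 bases before it in *Zscan4f*, on the gene's own strand. Among 32851 RefSeq promoters, 7.57% held TATAAA on either strand in the same 150 bases. The *Zfp352* window held no match. The octamer ATGCAAAT, the classical POU-factor motif, was searched on both strands and was in none of the 4 windows of 300 bases (250 before to 50 after the start), against 1.74% of all promoters. The aligned 300-base windows were 97.2% identical between *Zscan4c* and *Zscan4d* (8 of 289 aligned bases differed), 99.3% between *Zscan4c* and *Zscan4f* (2 of 277) and 97.4% between *Zscan4d* and *Zscan4f* (7 of 266). The *Zfp352* window was 52.5% to 62.3% identical to the *Zscan4* windows.

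The likeness of the copies extends through the transcripts and limits what a count of 1 copy means. Of all 100-base stretches in the longest annotated transcript, 89.5% in *Zscan4f*, 72.8% in *Zscan4c* and 29.6% in *Zscan4d* also stood in the transcript of another gene. The shares with 50-base stretches were 95.3%, 85.5% and 49.6%, and *Zscan4-ps2* was the gene sharing most of them with *Zscan4f* and *Zscan4c*. *Tcstv1* (4.06% of 100-base stretches), *Tcstv3* (7.79%), *Zfp352* (0.643%) and *Tmem92* (0%) were far more distinct. Reads that could come from several genes may be among those counted. The 6 genes *Gm20765*, *Gm21293*, *Gm21312*, *Gm21304*, *Gm6763* and *Gm8764* share 1 identical longest transcript of 1246 bases, yet each held between 5893 and 11973 reads over the 15 libraries. Their totals differ, and whether 1 read was counted for more than 1 gene is not known. The values of single *Zscan4* copies are therefore uncertain as measures of those copies.

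**Figure D1:**
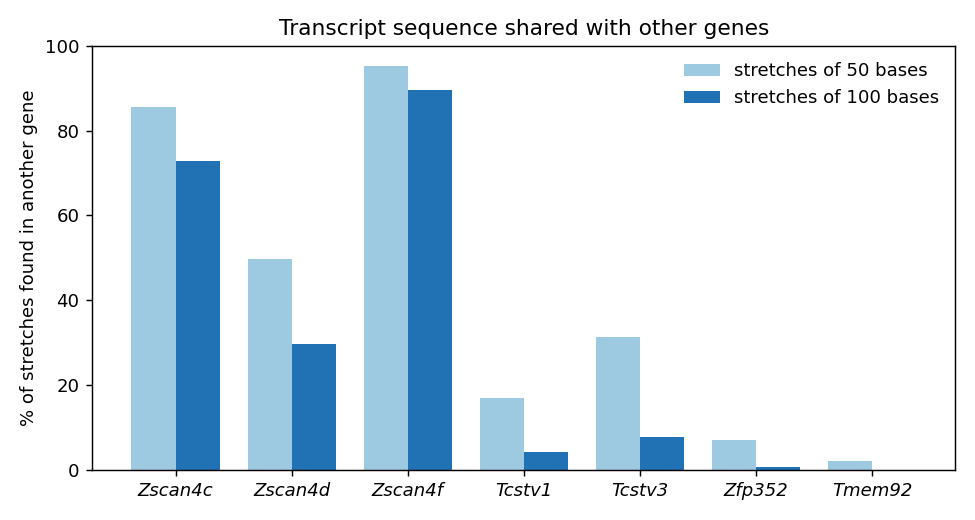
Share of the 50-base (light) and 100-base (dark) stretches of each member's longest transcript that also occur in a transcript of another gene (bars, %, from 0). The 3 *Zscan4* genes reach 49.6% to 95.3% at 50 bases, whereas *Zfp352* and *Tmem92* stay at 7.09% and 2.01%.

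Each CreER library held 21.7 to 30.8 M (mega) counted reads and each O4AID library 40.5 to 48.7 M, of which 3283 to 4464 and 1413 to 2949 reads fell on the 7 members. *Pou5f1* in CreER changed by -1.26 on the log2 scale at 24 h and by -1.43 at 36 h (edgeR, adjusted p = 2.86e-17 and 4.15e-19). In O4AID its RNA changed by -0.27 at 24 h. Those counts do not separate the degron transgene from other *Pou5f1* sequence, and they do not measure the protein. The ESC list (*Pou5f1*, *Nanog*, *Sox2*, *Zfp42*, *Esrrb*, *Klf4*) was expressed in every library, but not at a steady level. In O4AID at 24 h 5 of the 6 were past the fold, a log2 change of 1, all lower (median -2.18). Of all genes 3.03% were lower by as much. In CreER at 36 h 4 of the 6 fell and 1 rose (median -0.16), where 17.2% of all genes fell and 19.4% rose. The 6 fibroblast markers (*Col1a1*, *Col1a2*, *Col3a1*, *Dcn*, *Lum*, *Thy1*) summed to 8.16 to 9.50 TMM-scaled counts per mega-count (CPM) in CreER and 2.71 to 5.08 CPM in O4AID. Of the 4 tested in CreER at 36 h, 1 rose (*Col1a2*, 1.01, edgeR adjusted p = 0.00387), where 19.4% of all genes rose. In O4AID at 24 h 1 of 3 was past the fold (*Col1a1*, -1.43, from 162 to 34 reads), where 6.93% of all genes were past it in either direction. *Dcn* held 0 reads and *Lum* 7. Their part in the members' values was not tested.

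All values below are CPM after TMM scaling over the 15 libraries, and a level means this unless per-kb values are named. The *Zscan4* genes were the most abundant members. *Zscan4c* ranged from 41.6 to 61.3 CPM in the 10 CreER libraries (median 45.4), *Zscan4d* from 33.9 to 48.6 (median 37.1) and *Zscan4f* from 33.6 to 53.6 (median 39.4). *Tmem92* ranged from 7.06 to 10.5 CPM, *Zfp352* from 3.01 to 5.24, *Tcstv1* from 3.26 to 4.82 and *Tcstv3* from 1.02 to 1.71. No member was at the detection floor, at most 3 counts in every library of a group, in CreER, and the lowest count was 27 for *Tcstv3*.

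Per kb of exon, the mean over the CreER libraries fell in the order *Zscan4f* (20.9 CPM per kb), *Zscan4c* (20.6), *Zscan4d* (16.7), *Tmem92* (3.73), *Tcstv3* (2.80), *Tcstv1* (2.66) and *Zfp352* (1.70). The ranges of neighbours, taken over all times, overlapped among the 3 *Zscan4* genes and from *Tmem92* to *Tcstv3* to *Tcstv1*. Compared within libraries, *Zscan4d* was below *Zscan4c* and *Zscan4f* in every CreER library, and *Tmem92* was above *Tcstv3* in every one. *Zscan4f* and *Zscan4c* changed places between libraries, as did *Tcstv3* and *Tcstv1*, so those neighbours were not separated. The range of *Zscan4d* stood apart from that of *Tmem92*, and the range of *Tcstv1* stood barely above that of *Zfp352*. In O4AID the order was *Zscan4c* (11.6), *Zscan4f* (5.88), *Zscan4d* (4.73), *Tcstv3* (2.19), *Tmem92* (1.99), *Zfp352* (0.784) and *Tcstv1* (0.0380). There the ranges of all neighbours overlapped except those of *Zfp352* and *Tcstv1*. Within each O4AID library neighbours kept this order, except *Tcstv3* and *Tmem92*, which changed places between libraries.

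*Tcstv1* separated the lines. It held 87 to 120 reads in each CreER library and 3, 2, 2, 3 and 1 reads at 0, 1.5, 6, 10 and 24 h in O4AID, so it was at the detection floor in all 5 O4AID libraries and no change is given for it there. In untreated cells its level was 3.79 and 3.80 CPM in CreER and 0.0683 in O4AID, a ratio of 55.5 (95% counting interval 18.7 to 165). *Tcstv3*, its relative, did not separate the lines (1.64 and 1.62 against 1.55 CPM, ratio 1.05, interval 0.768 to 1.44).

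The *Zscan4* genes also differed between the untreated lines, and not in equal measure. *Zscan4d* stood at 37.0 and 37.1 CPM in CreER and 11.9 in O4AID, a ratio of 3.12 (interval 2.84 to 3.44), and the ratio was 3.05 (2.78 to 3.35) for *Zscan4f* and 1.62 (1.52 to 1.74) for *Zscan4c*. *Tmem92* (1.55, 1.32 to 1.83) and *Zfp352* (1.4, 1.10 to 1.78) were higher in CreER as well. Genotype, strain, the transgenes and the doxycycline given to O4AID differ between the lines and O4AID has 1 untreated library. These differences cannot be told apart and the ratios carry no test.

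**Figure D2:**
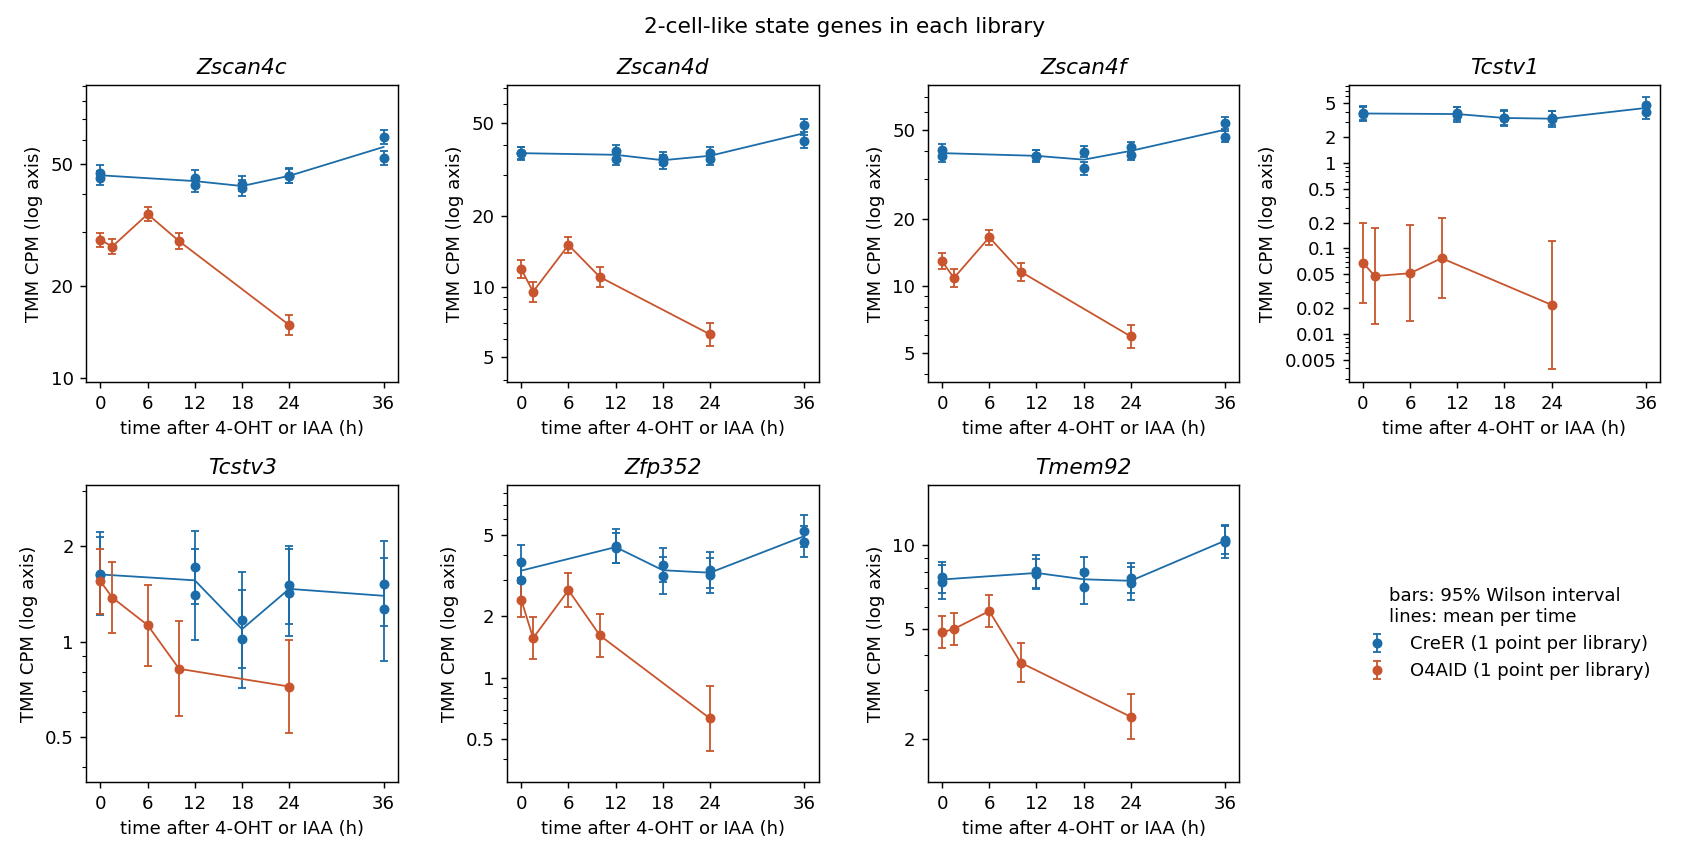
TMM CPM (log axis) of each gene against hours after 4-OHT (CreER, blue, 2 libraries a time) or IAA (O4AID, orange, 1 library a time). Points are libraries, bars 95% Wilson intervals for counting error and lines join the mean of each time. Most CreER levels lie close to those at 0 h up to 24 h, but *Zfp352* is higher at 12 h and *Tcstv3* lower at 18 h. At 36 h CreER levels are higher for *Zscan4c*, *Zscan4d*, *Zscan4f*, *Zfp352* and *Tmem92*. Levels in O4AID drop by 24 h, and *Tcstv1* in O4AID rests on 1 to 3 reads.

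In CreER most members stayed near their starting level for a day. *Zfp352* lay above it at 12 h and *Tcstv3* below it at 18 h. Against 0 h, the later times of 12, 18 and 24 h each had 0 of the 7 members called by the quasi-likelihood test of edgeR at an adjusted p under 0.05, while 0.395%, 8.52% and 21.6% of the 18969 genes tested were. DESeq2 called 0 of the 7 at each of these times too. At an unadjusted p under 0.05 the counts were 1 at 12 h (*Zfp352*, log2 change 0.37, adjusted p = 0.447), 1 at 18 h (*Tcstv3*, -0.57, adjusted p = 0.14) and 0 at 24 h. The same held for single steps, with 0 called from 12 to 18 h and 0 from 18 to 24 h, against 1.55% and 1.35% of all genes, and with 2 (*Tcstv3* and *Zfp352*) and 0 at an unadjusted p under 0.05 by edgeR and 0 by DESeq2 after adjustment.

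The intervals give the range of changes that the data allow at 24 h. The log2 change of *Zscan4c* was 0.00 (95% interval -0.13 to 0.13), that of *Zscan4d* -0.03 (-0.17 to 0.11) and that of *Zscan4f* 0.04 (-0.12 to 0.20). The scarcer genes were less tightly bounded, *Tmem92* at -0.01 (-0.23 to 0.21), *Zfp352* at -0.04 (-0.36 to 0.28), *Tcstv1* at -0.19 (-0.50 to 0.11) and *Tcstv3* at -0.14 (-0.59 to 0.31).

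At 36 h 5 of the 7 genes rose in CreER, the 3 *Zscan4* genes, *Zfp352* and *Tmem92*, and 0 fell. Of all genes tested, 36.6% were called at this time and 19.4% rose. The median log2 change of the members was 0.32, against 0.01 over all genes tested.

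*Zscan4c* held 46.8 and 45.1 CPM at 0 h, 42.8 and 45.2 at 12 h, 41.6 and 43.1 at 18 h, 45.7 and 45.8 at 24 h, and 52.4 and 61.3 at 36 h. Both 36 h libraries stood above the 8 earlier ones, and the 36 h replicates lay further apart than those of any earlier time. Its log2 change from 0 to 36 h was 0.32 ± 0.064 (SE, n = 2 a time, edgeR adjusted p = 0.000261). This SE, like those below, rests on a spread shared over all CreER times, not on the 0 and 36 h libraries alone.

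*Zscan4d* held 37.0 and 37.1 CPM at 0 h, 35.1 and 37.8 at 12 h, 33.9 and 35.2 at 18 h, 37.2 and 35.1 at 24 h, and 41.6 and 48.6 at 36 h. *Zscan4f* held 40.5 and 38.1 CPM at 0 h, 38.3 and 38.2 at 12 h, 33.6 and 40.0 at 18 h, 41.8 and 38.8 at 24 h, and 46.6 and 53.6 at 36 h. In both copies the 36 h libraries again stood above all earlier ones, replicate 2 higher than replicate 1. Their log2 changes from 0 to 36 h were 0.29 ± 0.068 (edgeR adjusted p = 0.00127) and 0.36 ± 0.077 (edgeR adjusted p = 0.000889). With so much shared sequence, the 3 copies are not independent measurements.

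*Zfp352* shares little sequence with other genes. It held 3.01 and 3.70 CPM at 0 h, 4.32 and 4.42 at 12 h, 3.17 and 3.56 at 18 h, 3.17 and 3.38 at 24 h, and 4.65 and 5.24 at 36 h. The 36 h libraries were the highest, with those at 12 h next, and the 0 h pair showed the widest gap between replicates of any member (0.298 on the log2 scale, median over 35 pairs 0.0815). Its log2 change from 0 to 36 h was 0.56 ± 0.150 (edgeR adjusted p = 0.00432).

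*Tmem92*, with no 100-base stretch in common with another gene, held 7.38 and 7.66 CPM at 0 h, 7.84 and 8.04 at 12 h, 7.06 and 8.01 at 18 h, 7.60 and 7.28 at 24 h, and 10.5 and 10.3 at 36 h. The 36 h pair stood clear of the 8 earlier libraries and its replicates were close. Its log2 change from 0 to 36 h was 0.48 ± 0.104 (edgeR adjusted p = 0.000605), and it was called with any 1 library left out.

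The *Tcstv* genes were not called. *Tcstv1* held 3.79 and 3.80 CPM at 0 h, 3.81 and 3.66 at 12 h, 3.40 and 3.32 at 18 h, 3.33 and 3.26 at 24 h, and 3.99 and 4.82 at 36 h, with a log2 change from 0 to 36 h of 0.22 (95% interval -0.08 to 0.52, edgeR adjusted p = 0.267). *Tcstv3* held 1.64 and 1.62 CPM at 0 h, 1.71 and 1.41 at 12 h, 1.17 and 1.02 at 18 h, 1.51 and 1.43 at 24 h, and 1.53 and 1.26 at 36 h. Its 36 h libraries lay below both 0 h libraries, with a log2 change of -0.20 (-0.68 to 0.27, edgeR adjusted p = 0.536). With 27 to 54 reads in each CreER library, the change of *Tcstv3* was the least tightly bounded of the 7.

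**Figure D3:**
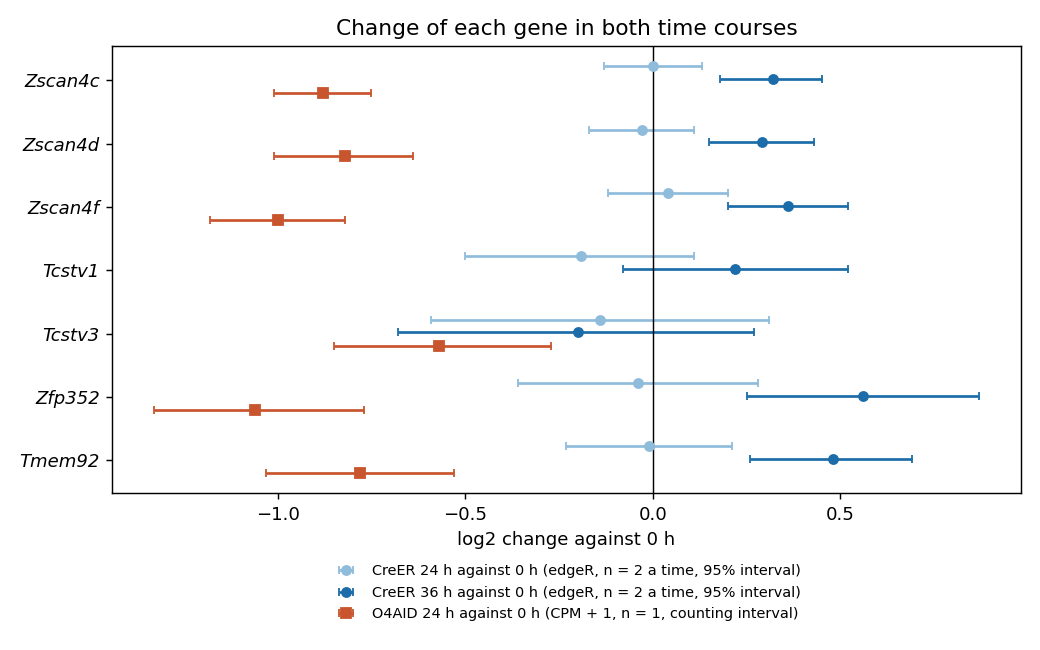
Log2 change against 0 h of each gene in CreER at 24 h (light blue) and 36 h (dark blue), with 95% intervals from edgeR (n = 2 libraries a time), and in O4AID at 24 h (orange squares, CPM plus 1, n = 1, 95% counting intervals). CreER values at 24 h straddle 0, those at 36 h lie above 0 for 5 genes, and O4AID values lie below 0. *Tcstv1* has no O4AID point because it was at the detection floor.

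The rise fell between the last CreER times. From 24 to 36 h, 5 of 7 members rose, the same 5 as against 0 h, and 0 fell, where 14.7% of all genes were called and 8.13% rose. The log2 changes were 0.31 for *Zscan4c*, 0.32 for *Zscan4d*, 0.32 for *Zscan4f*, 0.60 for *Zfp352* and 0.48 for *Tmem92* (edgeR adjusted p = 0.000922, 0.00159, 0.00747, 0.00681 and 0.00156). *Tcstv1* changed by 0.41 (0.10 to 0.72, edgeR adjusted p = 0.0648) and *Tcstv3* by -0.06. Both contrasts use the same 36 h libraries.

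Replicate 2 at 36 h weighs on these calls. Chi-square per degree of freedom, comparing replicate counts of the 7 members, was 5.83 at 36 h, against 0.543 to 2.31 at the other times. Over all genes it was also highest at 36 h, at 7.0, against 3.02 to 5.63 at the other times. Without that library, the log2 change from 0 to 36 h was 0.19 for *Zscan4c*, 0.17 for *Zscan4d* and 0.25 for *Zscan4f*, and that from 24 to 36 h was 0.20, 0.20 and 0.21. Without it, 3 of 7 members were called from 0 to 36 h, with *Zscan4d* (edgeR adjusted p = 0.0854) and *Zfp352* (0.0582) lost, and 1 of 7 (*Tmem92*) from 24 to 36 h. *Zfp352* was also lost from 0 to 36 h without replicate 1 at 0 h (adjusted p = 0.0579). Without replicate 2 at 24 h, 3 of 7 were called from 24 to 36 h.

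In O4AID the members took another course. At 24 h all 6 members above the count minimum (10 counts on average in the line's 5 libraries) were below their 0 h level, with a median log2 change of CPM plus 1 of -0.85 against -0.03 over 17471 genes. Of these 6, 2 were past a log2 change of 1, both lower, where 6.93% of all genes were past it in either direction and 3.03% were lower. The count of 2 became 0 with a pseudocount of 5 CPM, with total-count scaling and with the 1.5 h library as the reference, while 6 of 6 stood below the 1.5 h library too. There is 1 library at each time, so no p-value is given and every comparison sets 1 library against another.

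*Zfp352* held 2.41, 1.57, 2.69, 1.61 and 0.633 CPM at 0, 1.5, 6, 10 and 24 h. The 24 h library held 29 reads against 106 at 0 h, a ratio of 0.262 (95% counting interval 0.174 to 0.395) and a log2 change of CPM plus 1 of -1.06. *Zscan4f* held 12.9, 10.8, 16.5, 11.6 and 5.92 CPM, highest at 6 h and lowest at 24 h, with a ratio of 0.461 (0.398 to 0.532) and a log2 change of -1.0, right at the threshold.

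*Zscan4c* held 28.2, 26.9, 34.3, 28.0 and 14.9 CPM, and *Zscan4d* 11.9, 9.52, 15.1, 10.99 and 6.27. Both had the same shape as *Zscan4f*, with the 6 h library highest, the 10 h library near the 0 h level and the 24 h library lowest. The 24 h ratios were 0.527 (0.480 to 0.579) and 0.528 (0.457 to 0.610), and the log2 changes -0.88 and -0.82. *Tmem92* held 4.85, 4.99, 5.78, 3.77 and 2.40 CPM, with a 24 h ratio of 0.495 (0.393 to 0.623) and a log2 change of -0.78. *Tcstv3* alone among the 6 was not highest at 6 h, with 1.55, 1.38, 1.13, 0.820 and 0.721 CPM, a 24 h ratio of 0.465 (0.307 to 0.704) and a log2 change of -0.57.

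At the earlier times 0 of 6 members were past the fold, while 0.0859%, 0.973% and 2.12% of all genes were past it at 1.5, 6 and 10 h. The direction differed with time. At 1.5 h 5 of the 6 were below 0 h (median -0.16), at 6 h 5 of the 6 were above it (median 0.24), and at 10 h 6 of 6 were below it (median -0.22), where the median over all genes was -0.01, -0.01 and -0.02. Against the 1.5 h library the direction at 10 h turned for 4 of the 6, *Zscan4c* (0.06), *Zscan4d* (0.19), *Zscan4f* (0.09) and *Zfp352* (0.03), and at 6 h 5 of the 6 were above it. The 6 h ratio was 1.21 (1.12 to 1.31) for *Zscan4c*, 1.27 (1.13 to 1.43) for *Zscan4d* and 1.28 (1.15 to 1.44) for *Zscan4f*. The intervals of *Tmem92* (1.19, 0.989 to 1.44), *Zfp352* (1.11, 0.85 to 1.46) and *Tcstv3* (0.727, 0.498 to 1.06) included no change. At 1.5 h *Zscan4d* (0.802, 0.704 to 0.914), *Zscan4f* (0.843, 0.745 to 0.954) and *Zfp352* (0.649, 0.478 to 0.882) were lower than at 0 h beyond counting error. With no replicate at any of these times, the spread between O4AID libraries of 1 time is not known.

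The 24 h libraries are the matched time of the time courses. Both are given here as log2 changes of CPM plus 1, each CreER replicate against the mean of the 0 h pair. *Zscan4c* was at -0.01 and -0.01 in CreER and -0.88 in O4AID, *Zscan4d* at 0.00 and -0.08 against -0.82, and *Zscan4f* at 0.08 and -0.02 against -1.0. *Tmem92* was at 0.01 and -0.04 against -0.78, *Zfp352* at -0.06 and 0.01 against -1.06, and *Tcstv3* at -0.07 and -0.12 against -0.57. Adding 1 CPM understates changes of the scarce genes, whose O4AID ratios without it are given above. The lines, the agents and the speed of OCT4 loss differ together and O4AID has no replicates, so the difference between the routes was not tested.

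Other transcripts of the *Zscan4* cluster and of the 2-cell programme were counted as lists. All 6 other *Zscan4* copies rose in CreER at 36 h (median 0.34), where 19.4% of all genes rose. They were *Zscan4-ps1* (0.42, edgeR adjusted p = 6.42e-05), *Zscan4-ps2* (0.37, 5.94e-05), *Zscan4-ps3* (0.35, 6.5e-05), *Zscan4b* (0.33, 0.00137), *Zscan4e* (0.27, 0.0033) and *Zscan4a* (0.23, 0.00414). In O4AID at 24 h all 6 were below 0 h (median -0.82) and 1, *Zscan4a* (-1.33, 533 reads at 0 h and 193 at 24 h), was past the fold, where 6.93% of all genes were past it. These copies share sequence with the members, may share reads with them and are not taken as separate evidence.

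Of 31 further 2-cell genes matched (32 listed), 28 were tested in CreER, where 12 rose and 0 fell at 36 h (median 0.27), against 19.4% of all genes that rose and 17.2% that fell. The deubiquitinase genes *Usp17la* (0.67, edgeR adjusted p = 3.72e-06), *Usp17lb* (0.57, 1.19e-06) and *Usp17le* (0.43, 1.16e-05) were among them, as were *Gm2016* (0.40, 0.000156), *Gm5662* (0.33, 5.36e-05) and *BC080695* (0.47, 0.000646). In O4AID 26 had enough counts, 25 were below 0 h at 24 h (median -0.75), and 7 were past the fold, all lower (3.03% of all genes), with *Gm5662* at -1.32 and *Gm2016* at -1.18. *Usp17le* was at -0.82, *Usp17la* at -0.28 and *Usp17lb* at 0.11. *Duxf3*, the gene of the DUX factor and named here after its values were seen, had a CreER log2 change at 36 h of 0.28 (-0.10 to 0.67, edgeR adjusted p = 0.252) and 5 to 11 reads in the O4AID libraries, too few for a fold.

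**Figure D4:**
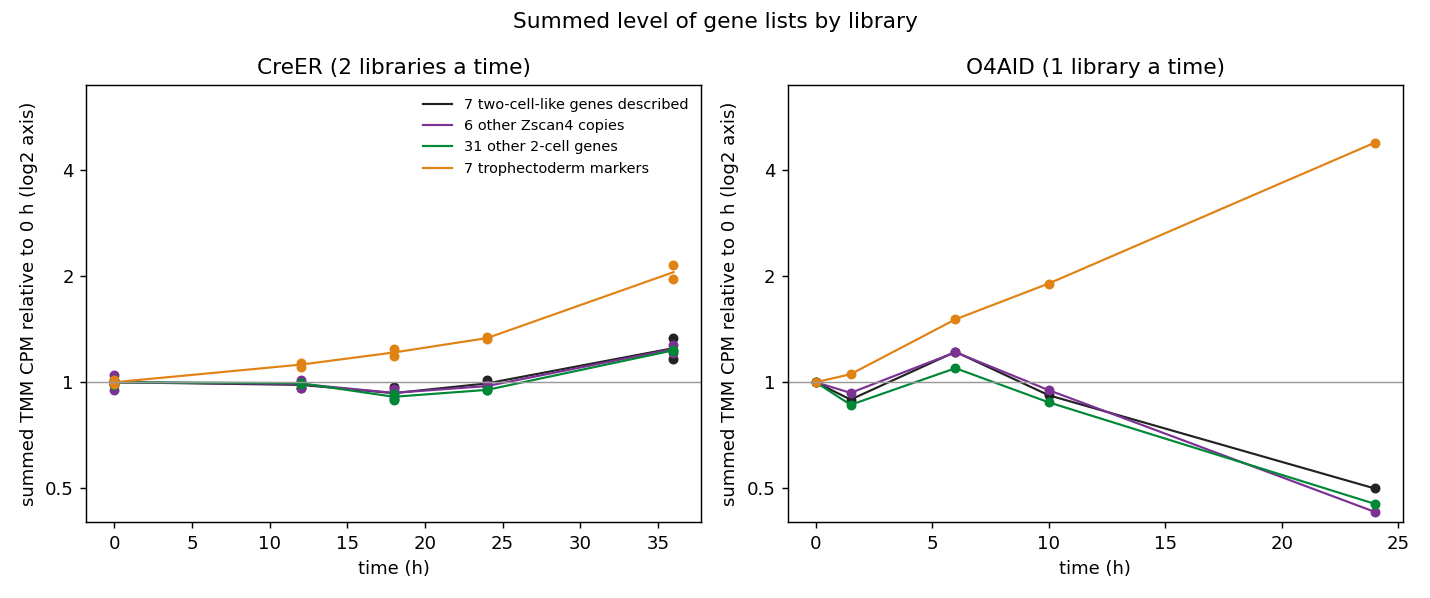
Summed TMM CPM of 4 gene lists relative to the mean at 0 h of the same line (log2 axis) against time, CreER left and O4AID right. Points are libraries and lines join the mean of each time. The members, the other *Zscan4* copies and the other 2-cell genes run close together in each line, up at 36 h in CreER and down at 24 h in O4AID, whereas the trophectoderm markers are higher at the last time in both.

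The summed level of the 7 members was 140 and 137 CPM at 0 h, 134 and 139 at 12 h, 124 and 134 at 18 h, 140 and 135 at 24 h, and 161 and 185 at 36 h in CreER. In O4AID it was 61.8, 55.2, 75.5, 56.8 and 30.9 CPM in order of time. The 3 *Zscan4* copies, which may share reads, make up most of this sum, and *Tcstv3* did not follow it in CreER. Markers of trophectoderm, the lineage ESCs enter without OCT4, moved as well: 7 of 7 rose in CreER at 36 h, where 19.4% of all genes rose. Their summed level went from 256 to 262 CPM at 0 h to 508 to 556 CPM at 36 h. In O4AID all 7 were above 0 h at 24 h and their sum went from 18.7 to 89.6 CPM. Of the 7, 3 were past the fold, all higher, where 6.93% of all genes were past it in either direction. Their part in the members' values was not tested.

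Genes acting upstream of the programme were counted in the same way. Of 4 listed activators (*Dppa2*, *Dppa4*, *Trp53*, *Nelfa*), 2 fell in CreER at 36 h and 0 rose, where 17.2% of all genes fell and 19.4% rose. *Trp53*, the p53 gene, whose product can activate *Dux*, changed by -0.43 (edgeR adjusted p = 1.35e-08), and *Dppa4*, which with *Dppa2* activates *Dux*, by -0.45 (edgeR adjusted p = 6.65e-05). In O4AID at 24 h the same 2 were past the fold, where 3.03% of all genes were lower by as much, *Trp53* at -1.01 (10807 to 5593 reads) and *Dppa4* at -1.07 (2480 to 1208 reads).

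Of 18 listed repressors of the 2-cell programme, 14 fell and 1 rose in CreER at 36 h (median -0.17), against 17.2% and 19.4% of all genes. The subunits of the non-canonical Polycomb complex PRC1.6 *L3mbtl2* (-0.46, edgeR adjusted p = 7.59e-10) and *Pcgf6* (-0.45, 4.3e-08) were among them, as were the histone H3K9 methyltransferase gene *Ehmt2* (-0.36, 3.27e-08), *Rif1* (-0.29, 4.17e-07), *Lin28a* (-0.37, 2e-07) and *Zfp42* (-0.55, 1.7e-11), which is also a naive ESC marker. The gene that rose was *Smchd1* (0.12, edgeR adjusted p = 0.026), a chromatin protein of gene silencing, named after its values were seen. In O4AID at 24 h 14 of the 18 were below 0 h and 4 above it (median -0.26, against -0.03 over all genes). *L3mbtl2* was at -0.40, *Pcgf6* at 0.06, *Ehmt2* at 0.02 and *Rif1* at -0.72. Past the fold were *Zfp42* (-2.42) and *Lin28a* (3.76, from 111 to 2140 reads), an RNA-binding protein gene that was lower in CreER and higher in O4AID. Of all genes, 6.93% were past the fold in either direction.

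Within CreER the members mostly varied together. Over the 10 libraries Pearson's r of log2 CPM was 0.929 to 0.976 between the *Zscan4* genes and 0.845 to 0.874 between each of them and *Tmem92*. *Tcstv1* followed them at 0.761 to 0.884 and *Zfp352* at 0.641 to 0.736. *Tcstv3* stood apart, at -0.055 to 0.176 with the other 6. The libraries share their time points, the *Zscan4* genes may share reads and *Tcstv3* has few reads, so these values are a description.

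Outside the lists, 5 genes had the pattern most like the members' summed level, by Pearson's r of log2 CPM centred within each line over the 15 libraries, among 18607 genes. They were *Gm21312* (r = 0.967), *Tedc2* (0.966), a tubulin-complex gene, *Gm8764* (0.964), *Gm21293* (0.960) and an unnamed gene (0.955). *Gm21312*, *Gm8764* and *Gm21293* are 3 of the 6 genes with the identical transcript above. That group includes *Gm6763*, which is on the 2-cell list above, so they are not taken as separate from that list.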

How the data were processed

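The 7 genes and the other gene lists were chosen with earlier results of these data known. The authors depleted ribosomal RNA from total RNA, made directional paired-end libraries, trimmed reads with Trim Galore 0.1.4, aligned them to GRCm38/mm10 with TopHat2 2.1.0 and counted them per Ensembl gene with featureCounts 1.5.1. Strand and multimapping settings are not given in the sources used here. The deposited files hold raw read counts per gene. The authors' normalised table was not used here. Spike-in entries (92, with 0 reads) were left out.

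CreER counts were tested with edgeR 4.0.16 (R 4.3.3): TMM factors, filterByExpr, robust quasi-likelihood fit of all 10 libraries with time alone as the term, 7 contrasts and Benjamini-Hochberg adjustment over 18969 genes, called at an adjusted p under 0.05. The code was tested on simulated data. O4AID changes are log2 ratios of TMM CPM plus 1, past the fold at 1 or more, for genes averaging 10 or more counts in its 5 libraries. Intervals are 95% Wilson intervals of the share of reads, carried to the ratio, and cover counting error only, as do floors, since reads carry no molecular identifiers. The floor is 3 counts. Depth was 21.7 to 30.8 M reads per CreER library and 40.5 to 48.7 M per O4AID library.

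Genes named beside the members passed the CreER test at 36 h or were past the O4AID fold at 24 h, up to 6 a list by adjusted p, with *Pou5f1* and the 5 genes most like the members' sum. Transcript stretches came from GENCODE M21 and promoters from RefSeq. Alternatives were other scalings, filters, pseudocounts and references, DESeq2 1.42.0, a replicate block, fits of the libraries compared alone and fits leaving out each library.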

Additional observations from a re-analysis of the deposited data

How the results depend on the processing

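In CreER the counts of called members under scaling by RLE or by total counts, no filter, at least 10 counts in every library, the 4 compared libraries alone and the replicate block were 5 from 0 to 36 h, 5 from 24 to 36 h and 0 in the other 5 contrasts. DESeq2 gave the same counts except 4 from 24 to 36 h, where *Zfp352* had an adjusted p of 0.0516. Leaving out each library in turn gave 3 to 5 from 0 to 36 h, 1 to 6 from 24 to 36 h and 0 to 0 otherwise. The low counts came without replicate 2 at 36 h (3 and 1) and, from 24 to 36 h, without replicate 2 at 24 h (3). The count of 6 came without replicate 1 at 36 h and added *Tcstv1* (0.56, edgeR adjusted p = 0.0435). From 24 to 36 h the calls lost were *Zscan4c* (0.20, adjusted p = 0.0550) without replicate 2 at 36 h, *Zscan4d* and *Zscan4f* without it (0.0778 and 0.107) or without replicate 2 at 24 h (0.0517 and 0.104), and *Zfp352* without it (0.0786) or without replicate 1 at 24 h (0.0795). Over all alternatives the adjusted p from 0 to 36 h ranged from 2.26e-06 to 0.0273 for *Zscan4c*, 4.84e-05 to 0.0854 for *Zscan4d*, 1.68e-07 to 0.0221 for *Zscan4f*, 0.00298 to 0.0582 for *Zfp352* and 0.000299 to 0.00875 for *Tmem92*. Replicate numbers did not pair the libraries: the correlation of replicate differences between times was -0.021 to 0.05, and the replicate block changed no member's call.

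Under scaling by total counts the median log2 change of all genes was -0.078 from 0 to 36 h and -0.103 from 24 to 36 h, against 0.007 and 0.004 with TMM. The share of rises among calls went from 3686 of 6948 to 2696 of 7498 and from 1542 of 2785 to 682 of 3887.

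Uncalled values near 0 changed sign. From 0 to 18 h *Zfp352* gave -0.00 with RLE and -0.01 with total-count scaling, and *Tmem92* -0.01 with total counts. From 0 to 24 h *Zscan4c* gave -0.01 with RLE and with DESeq2 and -0.00 with the 4 libraries alone, and *Tmem92* 0.02 with total counts. From 18 to 24 h *Tcstv1* gave 0.01 and *Tmem92* 0.02 with total counts. Leaving out 1 library gave these ranges. From 0 to 12 h they were *Tcstv1* -0.05 to 0.00, *Tcstv3* -0.21 to 0.07, *Zscan4d* -0.08 to 0.03 and *Zscan4f* -0.09 to 0.01. From 0 to 18 h they were *Tmem92* -0.08 to 0.09, *Zfp352* -0.12 to 0.17 and *Zscan4f* -0.22 to 0.03, and from 12 to 18 h *Tmem92* -0.16 to 0.02 and *Zscan4f* -0.18 to 0.07. From 0 to 24 h they were *Tmem92* -0.05 to 0.02, *Zfp352* -0.17 to 0.12, *Zscan4c* -0.03 to 0.03, *Zscan4d* -0.08 to 0.02 and *Zscan4f* -0.02 to 0.10. From 18 to 24 h they were *Tmem92* -0.10 to 0.07 and *Zfp352* -0.12 to 0.04, and from 24 to 36 h *Tcstv3* -0.20 to 0.05.

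In O4AID 0 members were past the fold at 1.5, 6 and 10 h under every alternative. At 24 h the count of 2 became 3 with a pseudocount of 0.1 CPM, stayed 2 with no filter, and became 0 with a pseudocount of 5 CPM, with total-count scaling and with the 1.5 h library as reference. With a reference at 1.5 h *Zscan4f* was at -0.77 and *Zfp352* at -0.65, and 4 of 6 members turned to above the reference at 10 h. Depth limits *Tcstv1* in O4AID, at 1 to 3 reads, and *Tcstv3* everywhere, at 27 to 68 reads.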
